A study of Mus musculus with 112 samples.

Results

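The regions described here are peaks of RNA polymerase II (Pol II) carrying a phosphate at Ser2 (Ser2P), called in mouse embryonic stem cells after loss of SNRNP70, a protein of U1 snRNP. They were chosen by the peak calls themselves, as 4 h Ser2P peaks sharing no base with any 0 h Ser2P peak. Of 7090 Ser2P peaks at 4 h, 4060 met this rule (57.3%), and they are called 4 h-only peaks below. The remaining 3030 peaks at 4 h overlapped a 0 h Ser2P peak by at least 1 bp and are called shared peaks. In the other direction, 2543 of 5915 Ser2P peaks at 0 h (43.0%) met no 4 h peak and are called 0 h-only peaks. The 4 peak lists of the study held 44030 peaks in all.

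The 4 h libraries came from SNRNP70-AID cells of the 129/Ola strain treated with 500 µM indole-3-acetic acid (IAA) for 4 h, and the 0 h libraries from untreated cells. Both groups carry SNRNP70 with an auxin-inducible degron (AID), a tag through which IAA brings about breakdown of the protein. The titles of these libraries name the degron as 70AID, while their source label gives 46C mouse embryonic stem cells, named under other samples of the study as the parent of that line. Whether the degron line is 1 clone is not given in the sources used here. Chromatin was sheared to an average of 200 to 500 bp and precipitated with an antibody against Ser2P or Ser5P. Each mark had 1 library at 4 h and 1 at 0 h, so no difference between times has a replicate check and no p-value is given. The peak lists hold no measure of SNRNP70 itself or of stem cell marker genes.

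The tail of the largest Pol II subunit is phosphorylated in step with transcription. Ser5P marks Pol II near promoters and in early elongation, and Ser2P builds up along gene bodies and is high near 3′ ends, where transcripts are cleaved and polyadenylated. U1 snRNP pairs with 5′ splice sites and, beside this part in splicing, is known to keep transcripts from being cut and polyadenylated early within introns. Regions are given on mm9, with starts counted from 1. No mm9 gene annotation or genome was used here, so regions carry coordinates in place of gene names and no sequence is shown.

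The 4 h list was longer than the 0 h list for both marks, with 7090 against 5915 Ser2P peaks and 16216 against 14809 Ser5P peaks. Ser2P peaks covered 12.4 Mb at 4 h and 8.80 Mb at 0 h, and their median widths were 1179 and 1023 bp. Ser5P peaks covered 29.7 Mb at 4 h and 24.9 Mb at 0 h, with median widths of 1336 and 1223 bp. Sequencing depth is not given in the sources used here. The number of peaks found at 1 time only moves with list length, so values with lists of equal length are given for the Ser5P overlaps below and among the alternatives.

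The 4 h-only peaks were mostly narrow and of low score. Their median width was 942 bp (quartiles 797 and 1324 bp), against 1894 bp (1144 and 3258 bp) for shared peaks. Their median score was 66.1 (quartiles 55.4 and 99.0), against 177 (83.1 and 433) for shared peaks. The score is the authors' value deposited with each peak, what it scores is not stated in the files, and no list held one below 50. The 4 h-only peaks covered 4.85 Mb, with a mean width of 1194 bp. The shared peaks covered 7.56 Mb, with a mean width of 2495 bp, so that 39.1% of the bases under 4 h Ser2P peaks lay in 4 h-only peaks. Width and score belong to the list that the rule reads, and a wide peak meets a 0 h peak more easily, so these values are a description. The 0 h-only peaks were also narrow and low within their own list, with a median width of 813 bp and a median score of 64.6. All 0 h Ser2P peaks had medians of 1023 bp and 84.6.

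Along the 4 h list, 4 h-only peaks made up more of the low scores than of the high ones. Among the 709 peaks of highest score (479 to 3202) 30 were 4 h-only (4.23%), and among the 709 of lowest score (50 to 52.5) 578 were (81.5%). By width, 61 of the 709 widest peaks (8.60%) and 560 of the 709 narrowest (79.0%) were 4 h-only. A score of at least 100 was reached by 995 of the 4 h-only peaks (24.5% of them), at least 200 by 265, at least 500 by 23 and at least 1000 by 4. Most 4 h-only peaks thus stood below a score of 100, and few were among the highest scores of the list.

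**Figure D1:**
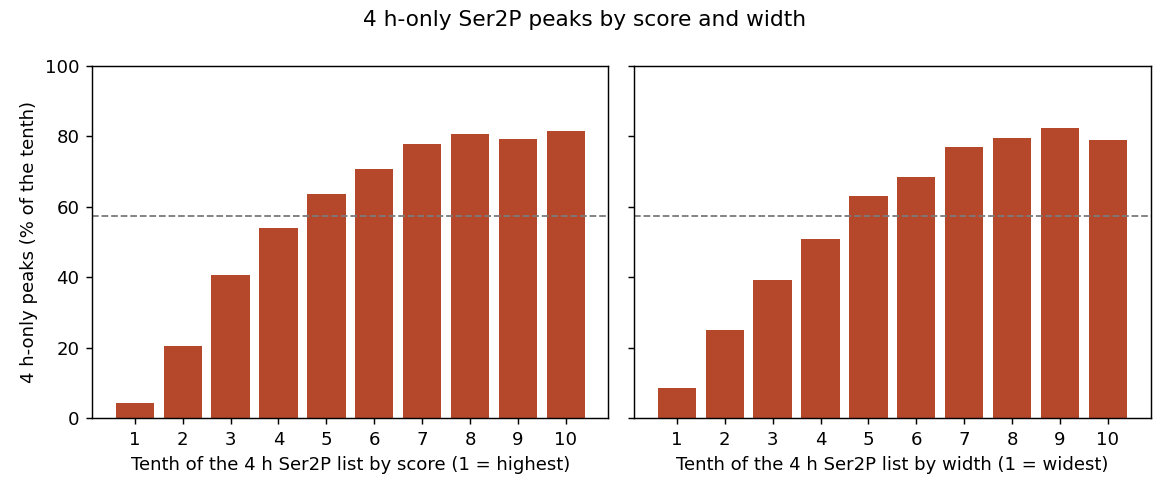
Bars give the percentage of 4 h-only peaks in 10 classes of 709 peaks of the 4 h Ser2P list, ordered by score on the left and by width on the right, and the dashed line gives the 57.3% of the whole list. By score the share was 4.23% in the highest class and 81.5% in the lowest, and by width it was 8.60% in the widest class and 79.0% in the narrowest.

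The 4 h-only peak of highest score (1484) lay on chromosome 7 at 150240231 to 150247409 and was 7179 bp wide. Its nearest 0 h Ser2P peak was 6914 bp away. Ser5P peaks covered 80.6% of it at 4 h and 17.5% at 0 h. Ser5P thus took up more of this region in the 4 h list, while the difference in Ser2P was set by the rule.

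Chromosome 10 held the next, at 127496882 to 127502786 (5905 bp, score 1367), 5662 bp from a 0 h Ser2P peak. Ser5P peaks covered 100% of it at 4 h and 91.8% at 0 h, so this region had Ser5P peaks at both times and a Ser2P peak at 4 h only. A peak on chromosome 2 at 103628693 to 103632623 (3931 bp, score 778) was alike, covered by Ser5P peaks over 100% of its length at 4 h and at 0 h, with the nearest 0 h Ser2P peak 22892 bp away.

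Other high peaks overlapped a 4 h Ser5P peak and shared no base with a 0 h Ser5P peak. On chromosome 11 at 74477406 to 74481961 a peak of 4556 bp (score 1362) had 67.8% of its length on a 4 h Ser5P peak, and the nearest 0 h Ser5P peak was 13695 bp away. On chromosome 8 at 20011357 to 20020258 a peak of 8902 bp (score 989) had 98.7% of its length on a 4 h Ser5P peak. That peak was the most isolated of the 10 with the highest scores, 145719 bp from a 0 h Ser2P peak and 219232 bp from a 0 h Ser5P peak. Peaks of this kind also stood on chromosome 10 at 95015824 to 95021574 (5751 bp, score 856) and on chromosome 15 at 78746014 to 78749083 (3070 bp, score 730.3). The first had 59.9% and the second 42.7% of its length on a 4 h Ser5P peak. The one on chromosome 15 was 492 bp from a 0 h Ser5P peak and 643 bp from a 0 h Ser2P peak. On chromosome 11 at 75501603 to 75505126 (3524 bp, score 964) the nearest 0 h Ser2P peak was 111 bp away and the nearest 0 h Ser5P peak 2417 bp away, while a 4 h Ser5P peak covered 69.1%. This last peak is not among the regions, listed below, whose 4 h Ser5P peak itself met no 0 h Ser5P peak.

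In 2 of the 10 peaks of highest score no Ser5P peak was met at either time. On chromosome 7 at 29344910 to 29351617 (6708 bp, score 1313) the nearest Ser5P peak was 30352 bp away at 4 h and 29793 bp away at 0 h, and the nearest 0 h Ser2P peak 1922 bp away. On chromosome 5 at 115571592 to 115575757 (4166 bp, score 766) the distances to Ser5P peaks were 1805 bp at 4 h and 1717 bp at 0 h. In all, 8 of these 10 peaks overlapped a 4 h Ser5P peak and 3 a 0 h Ser5P peak. The shares were 26.7% and 20.8% of all 4 h-only peaks and 36.2% and 35.2% of all 4 h Ser2P peaks. All 10 were wide, and among 4 h-only peaks of 2037 bp or more the shares were 49.6% and 35.1%. A 0 h Ser2P peak lay within 10000 bp of 7 of the 10.

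The widest 4 h-only peak, on chromosome 9 at 20709160 to 20718712, measured 9553 bp (score 544) and began 485 bp from a 0 h Ser2P peak. No Ser5P peak lay on it, the nearest being 5725 bp away at 4 h and 5892 bp at 0 h. Another wide one, on chromosome 1 at 182506980 to 182514734 (7755 bp, score 522), stood 19249 bp from a 0 h Ser2P peak and had 36.2% of its length on Ser5P peaks at 4 h and 13.8% at 0 h.

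Most 4 h-only peaks did not adjoin a 0 h Ser2P peak. The median distance between edges was 10838 bp (95% interval of the median over peaks, 9949 to 11722 bp), with quartiles of 2648 and 48762 bp. Of the 4060 peaks, 284 (7.0%) lay within 500 bp of a 0 h Ser2P peak, about the length of sheared chromatin, and 531 (13.1%) lay within 1000 bp. A 0 h Ser2P peak was found within 5000 bp for 1434 (35.3%), and 710 (17.5%) stood over 100000 bp away or, for 1 peak on chromosome Y, had none on their chromosome. The distances of 0 h-only peaks to the 4 h list had a median of 9498 bp (8199 to 10651 bp), and 41.3% lay within 5000 bp. These distances use unlike lists, since the 4 h list holds more peaks and bases and is met more easily at a short distance.

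**Figure D2:**
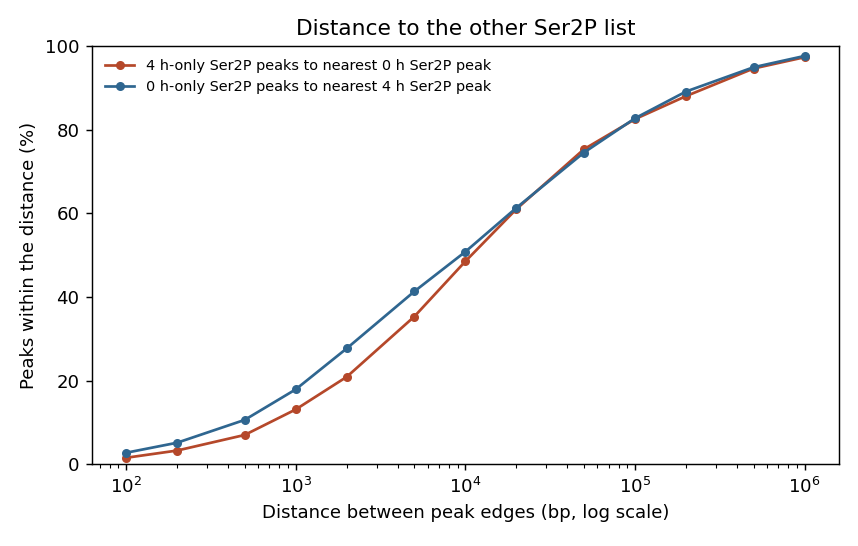
Lines give the cumulative percentage of 4 h-only peaks within a distance of a 0 h Ser2P peak, and of 0 h-only peaks within that distance of a 4 h Ser2P peak (log axis, bp between edges). Below 10000 bp the 4 h-only peaks run lower, 35.3% against 41.3% at 5000 bp, and above it the lines run together. The lines measure distance to unlike lists, of which the 4 h list is the longer.

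A 0 h Ser2P peak stood within 5000 bp on both sides of 186 of the 4 h-only peaks (4.58%), on 1 side of 1248 (30.7%) and on neither side of 2626 (64.7%). Where 1 was that close, the nearest was itself shared with 4 h for 937 (65.3%) and was a 0 h-only peak for 497 (34.7%). Of all 5915 Ser2P peaks at 0 h, each counted once, 43.0% were 0 h-only. Width and score of 4 h-only peaks hardly followed distance. Their medians were 1014 bp and 69.9 within 500 bp and 928 bp and 65.7 beyond 100000 bp. Among the peaks just inside the rule, one on chromosome 1 at 55136801 to 55137727 touched a 0 h peak without sharing a base, and the next 4 had gaps of 2 to 6 bp, with scores of 52.0 to 77.2. Just outside it, peaks on chromosome 15 at 99847185 to 99848589 (score 186) and chromosome 2 at 146903815 to 146904665 (score 64.2) overlapped a 0 h peak by 1 bp.

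The 5 of the 4 h-only peaks farthest from 0 h Ser2P peaks were 507 to 1500 bp wide, with scores of 70.5 to 133. On chromosome 16 at 78358492 to 78359564 (score 70.5) the distance was 6425456 bp, and on chromosome 10 at 52159213 to 52160331 (score 115) it was 5799406 bp, both with no Ser5P peak on them. A peak on chromosome X at 55290896 to 55292395 (1500 bp, score 133) was 4892054 bp from a 0 h Ser2P peak, yet Ser5P peaks covered 100% of it at 4 h and at 0 h, with scores of 1375 and 1392 in their own lists. The peaks on chromosome Y at 2652019 to 2652525 and on its unplaced sequence at 2331584 to 2332511 also had Ser5P peaks at both times.

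The 4 h-only peaks stood both alone and in runs. Runs were not counted in this way for shared or 0 h-only peaks, so they are not shown to be particular to 4 h-only peaks. Joined where gaps were at most 5000 bp, they formed 2928 runs, in which 2210 peaks (54.4%) were alone and 1850 (45.6%) had at least 1 neighbour. Runs of 3 or more held 908 peaks in 247 runs. When Ser2P peaks of both times were joined in the same way, 1798 of 5570 stretches (32.3%) held 4 h peaks alone and 1197 (21.5%) held 0 h peaks alone. The stretches with no 0 h peak took in 2326 of the 4 h-only peaks (57.3%), and the others shared a stretch with a 0 h Ser2P peak.

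The longest run, on chromosome 4 at 130303689 to 130336289, had 11 members over 32601 bp, which covered 52.2% of it. Inside it lay 2 peaks of 0 h Ser2P, no shared 4 h peak and no Ser5P peak of either time. Its highest score was 180.2. On chromosome 1 at 183922937 to 183946887, 9 members covered 79.0% of 23951 bp with no 0 h Ser2P peak inside and the nearest 24788 bp away. There, 6 members lay on a 4 h Ser5P peak and 5 on a 0 h Ser5P peak, and the highest score was 402. On chromosome 4 at 137088144 to 137106673, 7 members (highest score 487) covered 51.4% of 18530 bp, with no 0 h Ser2P peak and no Ser5P peak inside at either time. On chromosome 11, a run of 8 at 55283886 to 55303042 held 2 peaks of 0 h Ser2P, and 4 Ser5P peaks at 4 h against 7 at 0 h. The run of 7 at 79811034 to 79831040 on the same chromosome held 1 shared 4 h peak, 1 peak of 0 h Ser2P, and 1 Ser5P peak at 4 h against 4 at 0 h. The runs thus differed in Ser5P, which was called at both times in 3 of them and at neither in 2.

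The Ser5P lists were not read by the rule and come from other libraries of the same 2 conditions. Of the 4060 peaks, 1086 overlapped a 4 h Ser5P peak, or 26.7% (exact Clopper-Pearson 95% interval 25.4 to 28.1), and 843 overlapped a 0 h Ser5P peak, or 20.8% (19.5 to 22.0). Of all 7090 Ser2P peaks at 4 h the shares were 36.2% and 35.2%. The shared peaks showed the other order, with 48.8% (47.0 to 50.6) on 4 h Ser5P peaks and 54.5% (52.7 to 56.2) on 0 h Ser5P peaks. The 0 h-only peaks stood at 17.3% (15.9 to 18.9) on the 4 h and 27.0% (25.3 to 28.8) on the 0 h list. Intervals cover counting error only, and peaks near each other are not independent.

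Counted peak by peak, 640 of the 4 h-only peaks (15.8%) lay on Ser5P peaks at both times and 2771 (68.3%) at neither. On a 4 h Ser5P peak alone lay 446 (11%), and on a 0 h Ser5P peak alone 203 (5%). Over all 4 h Ser2P peaks these were 8.74% and 7.74%. Among shared peaks the counts were 174 (5.74%) and 346 (11.4%), and among 0 h-only peaks 79 (3.11%) and 325 (12.8%). So each group of peaks found at a single time had more Ser5P overlap in the list of its own time, and shared peaks had more in the 0 h list. The 4 h Ser5P list covered more bases, 29.7 against 24.9 Mb, so an overlap of 1 bp is met more easily there. A 4 h Ser5P peak met alone can itself overlap a 0 h Ser5P peak outside the Ser2P peak, as on chromosome 11 from 75501603. The values that follow equalise the number of Ser5P peaks and not the bases covered. With the 4 h Ser5P list limited by score to the 14809 peaks of the 0 h list, the 4 h-only peaks had 381 on 4 h Ser5P alone and 213 on 0 h Ser5P alone, the shared peaks 150 and 379, and the 0 h-only peaks 66 and 337, in the same order each time.

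**Figure D3:**
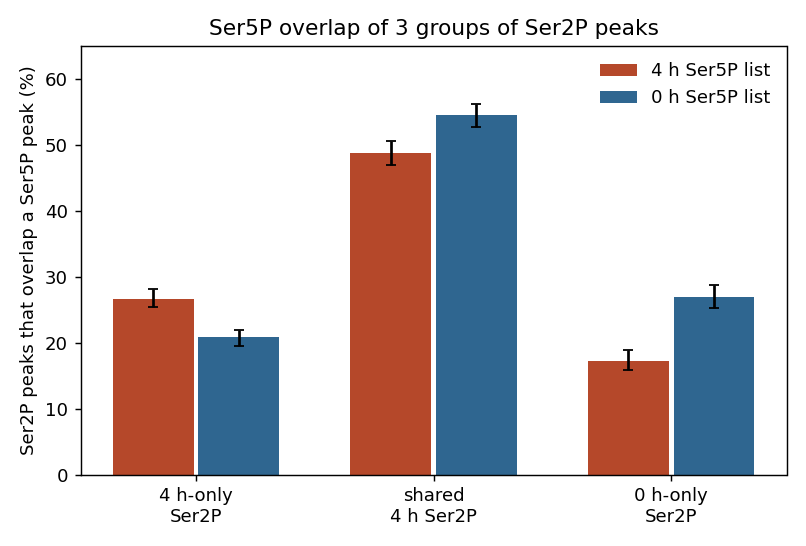
Bars give the percentage of 4 h-only, shared 4 h and 0 h-only Ser2P peaks that overlap a Ser5P peak of the 4 h or the 0 h list, with exact 95% binomial intervals over peaks of 1 library. The 4 h-only peaks stand at 26.7% and 20.8%, the shared peaks at 48.8% and 54.5%, and the 0 h-only peaks at 17.3% and 27.0%.

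Wide Ser2P peaks lay on Ser5P peaks more often than narrow ones, and within each of 4 width classes the 4 h-only peaks had a lower share than the shared peaks on both Ser5P lists. Among Ser2P peaks of 413 to 829 bp, 17.7% of 1427 of the 4 h-only peaks and 30.5% of 348 shared peaks lay on a 4 h Ser5P peak. For the 0 h Ser5P list these were 13.7% and 38.8%. Among Ser2P peaks of 2037 bp or more, 49.6% of 373 of the 4 h-only peaks and 62.9% of 1400 shared peaks lay on a 4 h Ser5P peak, and 35.1% and 66.1% on a 0 h one. In each width class the 4 h-only peaks had more overlap with the 4 h than with the 0 h list and the shared peaks had less. From the narrowest to the widest class, 115, 139, 122 and 70 of the 4 h-only peaks lay on 4 h Ser5P alone. On 0 h Ser5P alone lay 57, 70, 60 and 16. For shared peaks the counts were 20, 19, 55 and 80 on 4 h Ser5P alone and 49, 62, 109 and 126 on 0 h Ser5P alone.

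Of the 1086 peaks on a 4 h Ser5P peak, 447 (41.2%) lay wholly inside Ser5P peaks, and the median covered share was 90.9%. Neither value was worked out for shared peaks, and a narrow peak fits inside a Ser5P peak more easily. Of all 16216 Ser5P peaks at 4 h, 33.3% met no 0 h Ser5P peak. The next share counts 4 h-only Ser2P peaks instead and was not worked out for shared peaks, so the shares are unlike. The Ser5P peak that took up most of the overlap was itself without a 0 h Ser5P peak in 354 of the 1086 (32.6%). By score, the first such regions were those given above on chromosome 11 (from 74477406), chromosome 8, chromosome 10 (from 95015824) and chromosome 15, followed by one on chromosome 10 at 127828697 to 127834245 (5549 bp, score 729). In the last, 37.5% of the length lay on a 4 h Ser5P peak and the nearest 0 h Ser5P peak was 13821 bp away.

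Ser5P overlap also followed distance. Within 500 bp of a 0 h Ser2P peak, 28.9% of 284 of the 4 h-only peaks lay on 4 h Ser5P peaks and 32.0% on 0 h Ser5P peaks. At 500 to 1000 bp these were 26.3% and 27.1% of 247. Beyond 1000 bp the order was the other one, and between 10000 and 20000 bp 32.7% of 508 lay on 4 h and 20.5% on 0 h Ser5P peaks. Beyond 100000 bp both were lower, at 14.4% and 10.3% of 710. Near 1000 bp the counts on 4 h and 0 h Ser5P were close. They were 82 and 91 within 500 bp, 65 and 67 at 500 to 1000 bp, and 100 and 92 at 1000 to 2000 bp. The place where the order changes is thus not fixed by these values. The rule reads the same distance, so the classes are a description.

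**Figure D4:**
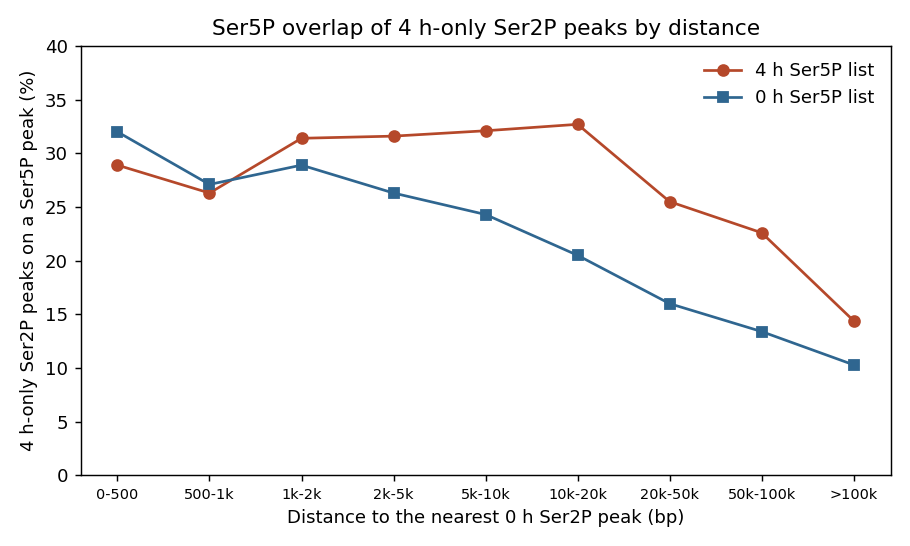
Points give the percentage of 4 h-only Ser2P peaks that lie on a 4 h or a 0 h Ser5P peak, by distance in bp to the nearest 0 h Ser2P peak, and the last class includes the peak with none on its chromosome. The lines cross near 1000 bp and stand at 32.7% and 20.5% between 10000 and 20000 bp.

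The 4 h-only peaks that did not overlap a Ser5P peak were mostly some way from one. The median distance was 11934 bp (11219 to 12854 bp) over 2974 peaks for the 4 h list and 10530 bp (9656 to 11517 bp) over 3217 peaks for the 0 h list. For shared peaks these were 12682 bp (11534 to 13689 bp) and 13554 bp (12262 to 14859 bp), and for 0 h-only peaks 11970 bp (11282 to 12853 bp) and 14356 bp (13169 to 15381 bp). Among peaks off 0 h Ser5P, 4 h-only ones were thus nearer to a 0 h Ser5P peak by median than shared or 0 h-only ones. Of them, 35.9% lay within 5000 bp, against 29.8% of shared and 28.7% of 0 h-only peaks. For all 4 h Ser2P peaks off 0 h Ser5P the median was 11513 bp (10752 to 12341 bp). With overlapping peaks kept in at a distance of 0 bp, shared peaks were the nearest to 0 h Ser5P. Their median was then 0 bp, against 5352 bp for 4 h-only and 6066 bp for 0 h-only peaks. Where both a 0 h Ser2P peak and a 0 h Ser5P peak lay within 10000 bp, 318 of 817 of the 4 h-only peaks (38.9%) stood between the nearest of each, and 499 had both on the same side. At up to 50000 bp, 977 of 2128 (45.9%) stood between them and 1151 had both on the same side. More 4 h-only peaks thus had both on the same side at either distance. Set against the nearest 4 h Ser2P and 0 h Ser5P peaks, 128 of 458 (27.9%) and 402 of 1170 (34.4%) of the 0 h-only peaks stood between. These use another, longer Ser2P list. Shared peaks overlap a 0 h Ser2P peak and were not counted in this way.

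The 4 h-only peaks were spread over the genome much as the 4 h list was. On chromosomes 1 to 19 and X their share of 4 h Ser2P peaks ran between 52.6% (chromosome 3, 133 of 253) and 61.8% (chromosome 18, 102 of 165). Chromosome 11 held the most, 399 of 689. On 19 of these 20 chromosomes more 4 h-only peaks lay on 4 h than on 0 h Ser5P peaks, chromosome 14 being the exception with 13 and 16 of 69. Chromosome 15 had the highest 4 h share, 34.7% against 26.7% on the 0 h list. Among shared peaks, 3 of the 20 chromosomes had more on the 4 h list. Chromosomes share their libraries and are not replicates.

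**Figure D5:**
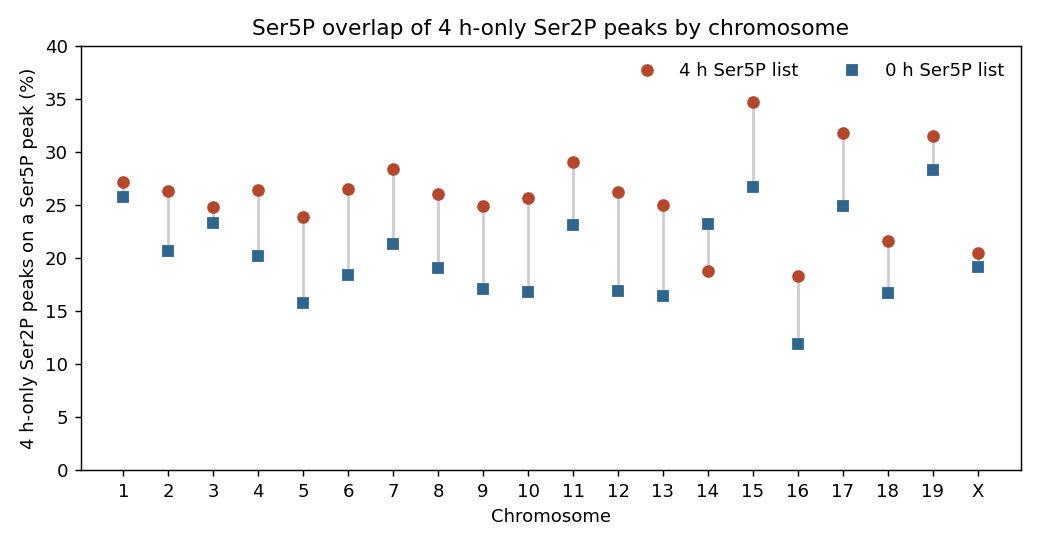
Points give, for chromosomes 1 to 19 and X, the percentage of 4 h-only Ser2P peaks on a 4 h or a 0 h Ser5P peak, joined by a line. The 4 h point is higher on each chromosome other than 14, where 13 of 69 peaks lay on 4 h and 16 on 0 h Ser5P peaks.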

How the data were processed

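The 4 peak lists (Ser2P and Ser5P at 4 h and 0 h of IAA, 1 library each, of 112 samples in the series) were used. Lists of lncRNA values, on another build and with no coordinates, were not used here. Peaks were deposited by the authors on mm9, per the labels, with Bowtie2, CASAVA, bedtools and TopHat2 2.0.11 in the submitters' processing notes. Peak names in the files begin with MACS, so that caller made them; the sources used here give no version, settings or input control. The score deposited with each peak was ranked and cut only within its list. Scores of different lists are not known to share a scale, also where they are printed side by side. What the score measures is not stated in the files. Read depth is not stated either.

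Overlaps and edge-to-edge distances were computed in Python 3.11.15 (pandas 2.3.3, numpy 2.4.6), checked on simulated intervals, and bedtools 2.31.1 gave the same 4060 peaks. Intervals of shares are exact Clopper-Pearson and those of medians use order statistics (scipy 1.17.1), at 95%. No test was made, since each list is 1 library. Regions were named by rule: the 10 highest scores, the 5 widest, the 5 farthest from a 0 h peak, the 5 longest runs by number of peaks, the 5 on each side of the overlap rule and the 5 highest scores on a 4 h Ser5P peak that met no 0 h one; part of these are printed. The regions and rules were chosen with earlier results of these data known. Alternatives changed the overlap, score threshold, merging, chromosomes and Ser5P rule.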

Additional observations from a re-analysis of the deposited data

How the results depend on the processing

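No paired analysis was possible because each list is 1 library and the results come from no test. Values below are, in order where given, the share of 4 h Ser2P peaks that were 4 h-only, their shares on 4 h and on 0 h Ser5P peaks, and their median width, score and distance to a 0 h Ser2P peak. Where 0 h peaks had to cover at least 50% of a shared peak they were 68.2%, 29.0%, 24.2%, 1006 bp, 71.0 and 6461 bp. With a 0 h peak within 500 bp counted as shared, 53.3% were 4 h-only at a median of 13104 bp. Within 1 kb it was 49.8%, with 19.4% on 0 h Ser5P and 15389 bp. Among 4 h peaks at or above the median score 1296 were 4 h-only, or 36.6%, with 37.3%, 29.0%, 1576 bp, 124 and 9333 bp, and 183 on 4 h Ser5P alone against 76 on 0 h Ser5P alone. With the 4 h list limited to the length of the 0 h list the values were 52.7%, 29.2%, 22.8%, 1074 bp and 76.1. With Ser2P peaks within 1 kb merged they were 54%, 24.9%, 19.3%, 978 bp and 16017 bp. Ser5P shares at 4 h and 0 h were 21.3% and 15.2% where Ser5P had to cover at least 50% of the peak, 34.4% and 29.2% within 1 kb, and 17.1% and 12.3% for Ser5P peaks at or above their median score (269 on 4 h Ser5P alone, 74 on 0 h Ser5P alone). The 4 h share was 24.9% with Ser5P lists of equal length, an alternative chosen after seeing the data. In each of these alternatives the 4 h Ser5P share was above the 0 h share. The other 42 of 81 values stayed within the interval of the value reported or, for counts, within 1.5 times it, all of those on chromosomes 1 to 19 and X among them. With 1 library per list, no spread between libraries is known.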
